A study of Homo with 2 samples.

Results

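A set of 10 genes of the simple epithelial keratin filaments and of the desmosomes that anchor them were followed through day 4 human blastoids: the keratins KRT7, KRT8, KRT18, KRT19 and KRT10, the desmosome genes DSP, DSG2, PKP2 and PKP3, and PERP. They were taken by symbol, and 10 of 10 were present among the 25556 genes that both count tables hold. Blastoids are blastocyst-like aggregates of pluripotent stem cells. These were grown from cells of KhES1, a human embryonic stem cell line that is long established. Per the labels, dissociated KhES1 cells spent 24 h in microwells, where they aggregated in DMEM that held 10% serum (FBS) and Y27632, a ROCK inhibitor, at 10 µM. The aggregates then spent 4 days in a hydrogel in the same medium. The study as used here has 2 libraries of this 1 group, both from 1 line, so no culture condition was compared. The labels do not say whether the libraries came from separate cultures, and the spread between them may be technical.

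Keratins are intermediate filament proteins that assemble only as pairs of a type I and a type II chain. KRT8, a type II chain, and KRT18, a type I chain, form the first keratin pair of the embryo and are the keratins of simple epithelia. KRT7 and KRT19 join them in ductal, placental and other single-layered epithelia, and KRT10 is best known from the upper layers of the epidermis. In a desmosome, cadherins such as DSG2 span the membrane, the plakophilins PKP2 and PKP3 and plakoglobin bind their tails, and desmoplakin, the product of DSP, ties the plaque to the keratin filaments. PERP is a small membrane protein that desmosomes of stratified epithelia need. In the human embryo the trophectoderm is the first epithelium, while the epiblast is the pluripotent tissue from which the amnion also arises.

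Only barcodes that had 1000 or more detected genes and no more than 20% mitochondrial UMIs were described, 937 of 1988 in library 1 and 1519 of 2601 in library 2. The UMI (unique molecular identifier) counts of these barcodes summed to 37467640 and 43953088, with medians of 35059 and 25116 per barcode. The libraries shared 1 barcode sequence in all and 0 among the retained ones. Cells were grouped on 1 random part of the UMIs without the 10 genes, and levels by group come from the other part. A trophectoderm/amnion-like class held 680 cells of library 1 and 885 of library 2, and 13 of its 14 markers reached 10 CPM (UMIs per 1000000) in both. Its smallest cluster, with 67 cells in each library, was led by PLCG2 and PDE4B and had TP63, a squamous marker, among its leading genes. An epiblast-like class held 59 and 80 cells, with 10 and 11 of 12 epiblast markers at that level. A syncytiotrophoblast-like cluster of 26 and 53 cells was led by PGF, HOPX and CYP19A1, with 6 of 6 measured markers in library 1 but 3 in library 2. ERVW-1, ERVFRD-1 and SDC1 were at 2.62, 8.73 and 8.73 CPM in library 2. The cluster also had 13 and 12 of the 14 trophectoderm/amnion markers. MKI67, a gene of cycling cells, stood there at 142 and 85.6 CPM, so the name is tentative. The other cells stayed unnamed, 76 and 379 of them in 1 cluster and 92 and 87 in another. Both of these clusters scored highest for the trophectoderm/amnion list, and each had 13 of its 14 markers detected. Their depth relative to the library median was 0.21 in the larger and 0.12 in the smaller, too low for a name under the limit of 1/3. They may therefore hold cells like those of the trophectoderm/amnion-like class.

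Over all retained barcodes KRT18 was the most abundant of the 10 genes, at 1396 CPM in library 1 and 1477 CPM in library 2. KRT8 stood at 1026 and 1058 CPM and KRT19 at 923 and 959 CPM. These 3 keratins together made up 3344 and 3494 of the 4864 and 5009 CPM of all 10 genes. DSP followed at 551 and 528 CPM, PERP at 346 and 365 CPM, and PKP2 at 288 and 278 CPM. DSG2 lay lower, at 133 CPM in both libraries. KRT7 had 115 and 117 CPM, KRT10 had 74.2 and 79.3 CPM, and PKP3 had 13.5 and 15.8 CPM. The order was the same in both libraries, and no pair of neighbours in it overlapped between libraries. KRT18 ranked 84 of 26826 genes in library 1 and 83 of 27093 in library 2, whereas PKP3 ranked 9167 and 8561. UMIs of this chemistry mark transcript ends, so these levels are not divided by gene length.

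The keratin genes lie in clusters on 2 chromosomes, and the sources that could blur their counts differ. In the RefSeq annotation of GRCh38, the type II gene KRT7 spans bases 52233243 to 52255853 of chromosome 12, and KRT8 spans 52897191 to 52949860 of the same chromosome. KRT18, although a type I gene, lies beside KRT8 at 52948855 to 52952906, and the annotated spans of this pair overlap by 1006 bases. KRT19 (41523617 to 41528308) and KRT10 (40818117 to 40822614) lie in the type I cluster of chromosome 17. The annotation also holds 52 pseudogenes named after KRT8 and 68 named after KRT18, so counts of these 2 genes are uncertain to the extent that reads from the copies were assigned to them. DSP lies at 7541671 to 7586714 and PERP at 138088505 to 138107419 of chromosome 6. PKP2 lies at 32790755 to 32896777 of chromosome 12, DSG2 at 31498177 to 31549008 of chromosome 18 and PKP3 at 392596 to 404908 of chromosome 11. KRT10 overlaps the antisense gene KRT10-AS1, which had 327 and 474 UMIs, and DSP overlaps DSP-AS1, which had 289 and 365 UMIs. The sources used here do not give whether the counting used strand.

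Between the 2 main classes, 8 of the 10 genes were higher in the trophectoderm/amnion-like class, led by PKP2 and PKP3 among the desmosome genes and KRT7 among the keratins, and 0 were lower. Counts were summed by library and class and tested with edgeR's quasi-likelihood test with the library as a block, with p-values adjusted over all 12908 genes tested. In this test 47.3% of all genes passed an adjusted p of 0.05, 22.0% as higher and 25.2% as lower in the trophectoderm/amnion-like class. The count of 0 lower genes was also 0 at an unadjusted p under 0.05, and 0 in DESeq2's Wald test. The median log2 fold change was 1.05 over the 10 genes and -0.03 over all genes tested. The classes did not overlap between libraries for 10 of the 10 genes, 9 of them higher and 1 lower, which also held for 77.7% of all genes tested, 34.3% as higher and 43.4% as lower. Median depth was 36920 and 32449 UMIs in trophectoderm/amnion-like cells and 57096 and 51230 UMIs in epiblast-like cells.

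The epiblast-like class was not uniform, and its make-up moved the fold of each of the 10 genes. It divided into 4 sub-clusters. The largest, with 26 and 17 cells, was led by CLDN10 and held GATA3, a trophectoderm and amnion factor, beside the pluripotency factor POU5F1. It scored highest for the trophectoderm/amnion marker list, and the fold of each of the 10 genes is therefore also given without it. Folds of related genes include it unless said otherwise. Without this POU5F1-GATA3 sub-cluster 9 of the 10 genes were higher and 1 was lower, against 25.6% higher and 27.2% lower of 12135 genes. The cells then left in the class included a sub-cluster of 14 and 17 cells led by RSPO3 and MESP1. That sub-cluster scored highest for the primitive streak and mesoderm list, with 8 of 9 markers at 10 CPM or more. The folds without the POU5F1-GATA3 sub-cluster are therefore not against epiblast-like cells alone.

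**Figure D1:**
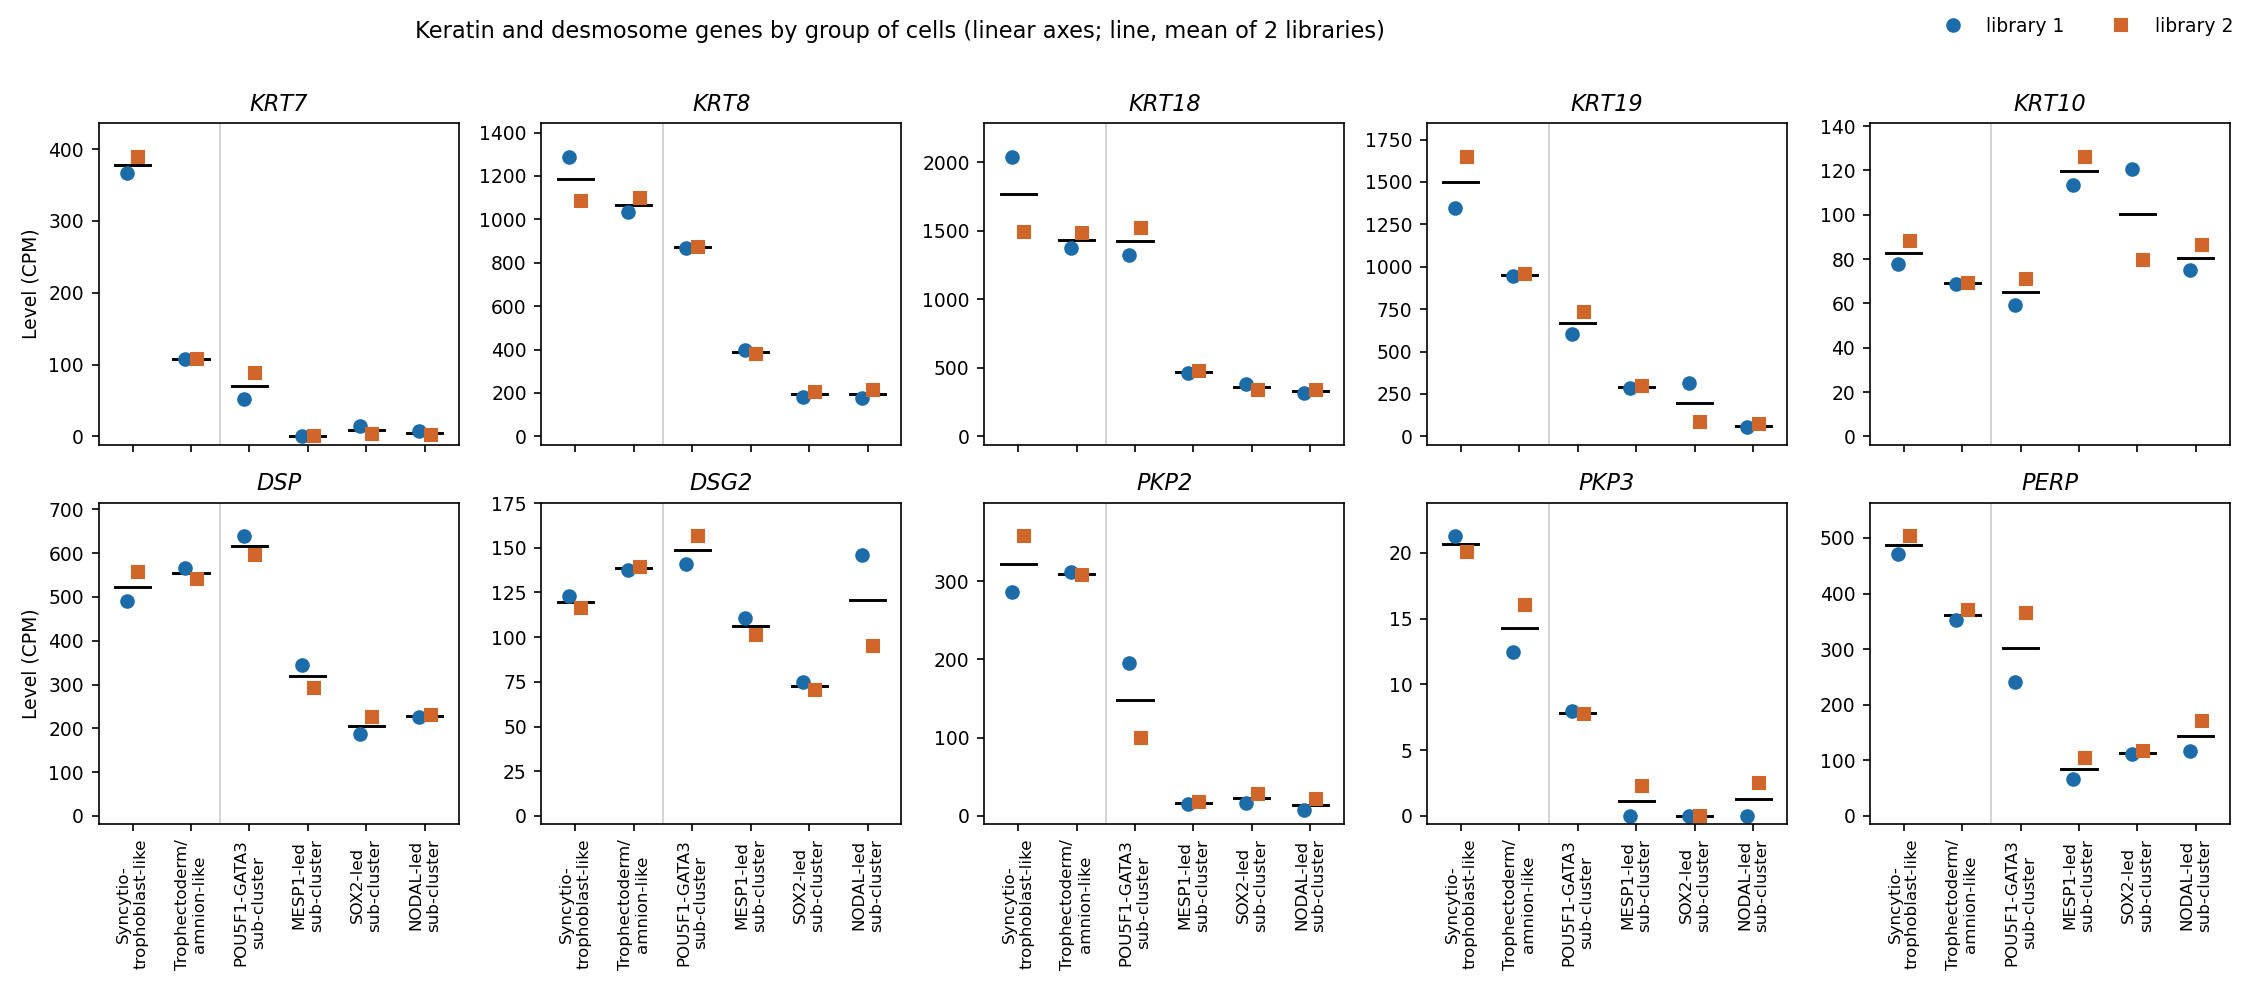
Level of each gene (vertical axes, CPM, linear, a scale of its own for each gene) in the syncytiotrophoblast-like cluster, the trophectoderm/amnion-like class and the 4 epiblast-like sub-clusters (horizontal axis). Circles are library 1, squares library 2 and the line their mean. KRT7 stood at 367 and 389 CPM in syncytiotrophoblast-like cells and at 0 UMIs in the MESP1-led sub-cluster, whereas the mean of KRT10 was highest in the MESP1-led sub-cluster.

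Of the type II chains, KRT7 showed the largest keratin difference. It had 107.5 and 107.2 CPM in trophectoderm/amnion-like cells of libraries 1 and 2, against 27.8 and 32.9 CPM in epiblast-like cells. The classes lay far apart, with little spread between the libraries in each. The log2 fold change was 1.87 (SE 0.18), with an edgeR adjusted p of 2.77e-07. Without the POU5F1-GATA3 sub-cluster it was 4.89, a 29.6-fold difference (edgeR adjusted p = 2.33e-09). KRT8, the general partner of KRT18, had 1036 and 1100.5 CPM in trophectoderm/amnion-like cells, against 534 and 484 CPM in epiblast-like cells. Both trophectoderm/amnion-like values lay far above both epiblast-like values, at a log2 fold change of 1.13 (SE 0.15; edgeR adjusted p = 1.17e-05) and of 2.14 without the POU5F1-GATA3 sub-cluster.

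Of the type I chains, KRT18 had 1374 and 1487 CPM in trophectoderm/amnion-like cells, against 816 and 797 CPM in epiblast-like cells. It was the most abundant keratin in both classes, and rose by 0.89 on the log2 scale (SE 0.17; edgeR adjusted p = 3.74e-04). KRT19 had 946 and 960.0 CPM in trophectoderm/amnion-like cells, against 402 and 358 CPM in epiblast-like cells. Its log2 fold change was 1.38 (SE 0.15; edgeR adjusted p = 1.61e-06). Without the POU5F1-GATA3 sub-cluster the log2 fold changes were 1.98 for KRT18 and 2.45 for KRT19. KRT10, the epidermal chain, went the other way, with 68.8 and 69.3 CPM in trophectoderm/amnion-like cells, against 85.0 and 87.0 CPM in epiblast-like cells. Its log2 fold change of -0.26 (SE 0.13) did not pass the test (edgeR adjusted p = 0.101). It passed as lower in trophectoderm/amnion-like cells when all UMIs were tested, at -0.35 (edgeR adjusted p = 0.0278), and without the POU5F1-GATA3 sub-cluster, at -0.46 (edgeR adjusted p = 7.26e-03).

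The balance of type II to type I chains moved little while the levels changed. UMIs of KRT7 and KRT8 divided by those of KRT18 and KRT19 gave 0.49 in trophectoderm/amnion-like cells of both libraries and 0.46 and 0.45 in epiblast-like cells. In syncytiotrophoblast-like cells the ratio was 0.49 and 0.47. It was less even in smaller groups, at 0.42 and 0.50 in epiblast-like cells without the POU5F1-GATA3 sub-cluster. The sub-cluster led by SOX2 had 0.28 and 0.50, and the unnamed cluster of 92 and 87 cells had 0.57 and 0.53. KRT8 per KRT18 was 0.75 and 0.74 in trophectoderm/amnion-like cells, against 0.65 and 0.61 in epiblast-like cells, and 0.86 and 0.79 in the MESP1-led sub-cluster. Within the type I chains, KRT19 per KRT18 was 0.69 and 0.65 in trophectoderm/amnion-like cells, against 0.49 and 0.45 in epiblast-like cells. KRT19 therefore made up a larger part of the type I UMIs in the trophectoderm/amnion-like class in both libraries, and this ratio was not tested. Without the POU5F1-GATA3 sub-cluster it was 0.60 and 0.37 in epiblast-like cells. It differed by sub-cluster, at 0.62 in both libraries of MESP1-led cells, 0.82 and 0.25 in SOX2-led cells and 0.17 and 0.22 in NODAL-led cells.

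The desmosome genes fell into strongly and weakly different ones. PKP2, the plakophilin of simple epithelia and heart muscle, had 312 and 307 CPM in trophectoderm/amnion-like cells, against 96.4 and 50.4 CPM in epiblast-like cells. It had the largest log2 fold change of the 10 genes, at 2.16 (SE 0.21; edgeR adjusted p = 2.53e-07). Within library 1 alone this was 1.76 and within library 2 alone 2.64, and the spread lay mainly between the epiblast-like values. Without the POU5F1-GATA3 sub-cluster it was 4.15, a 17.8-fold difference. PKP3, the other plakophilin of the set, was far scarcer, with 12.5 and 16.1 CPM in trophectoderm/amnion-like cells, against 3.61 and 4.07 CPM in epiblast-like cells. The epiblast-like values rest on 7 and 10 UMIs, and the log2 fold change was 1.95 (SE 0.32; edgeR adjusted p = 1.12e-04), or 3.73 without the POU5F1-GATA3 sub-cluster.

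DSP, the link between plaque and filaments, had 567 and 542 CPM in trophectoderm/amnion-like cells, against 428 and 375 CPM in epiblast-like cells. The classes did not overlap, but the difference was among the smaller ones, at a log2 fold change of 0.52 (SE 0.14; edgeR adjusted p = 5.05e-03). In another random split of the UMIs it just missed the threshold, at 0.68 with an edgeR adjusted p of 0.0523, and without the POU5F1-GATA3 sub-cluster it was 1.23. DSG2, the desmosomal cadherin of simple epithelia, had 137 and 139 CPM in trophectoderm/amnion-like cells, against 122 and 115 CPM in epiblast-like cells. The values lay close together, and the log2 fold change of 0.28 (SE 0.12) did not pass the test (edgeR adjusted p = 0.0696). It passed without the POU5F1-GATA3 sub-cluster, at 0.58 (edgeR adjusted p = 1.04e-03). PERP had 352 and 371 CPM in trophectoderm/amnion-like cells, against 162 and 222 CPM in epiblast-like cells. Its log2 fold change was 0.97 (SE 0.15; edgeR adjusted p = 6.14e-05), with 1.19 within library 1, 0.78 within library 2 and 1.69 without the POU5F1-GATA3 sub-cluster.

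**Figure D2:**
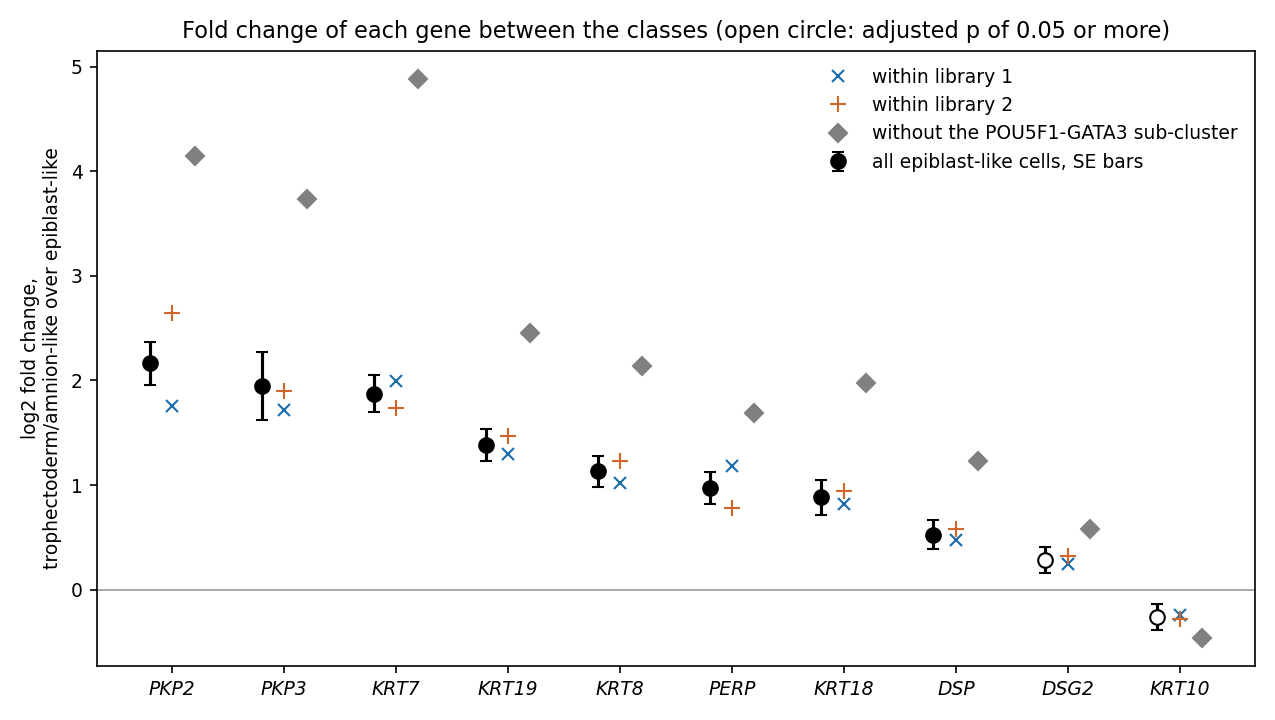
Log2 fold change of the trophectoderm/amnion-like over the epiblast-like class (vertical axis) for each gene (horizontal axis, sorted). Circles with SE bars are the edgeR estimates, open where the adjusted p was 0.05 or more, crosses are the folds within 1 library, and diamonds leave out the POU5F1-GATA3 sub-cluster. Leaving it out moved KRT7 to 4.89 and PKP2 to 4.15, and placed KRT10 farther below 0.

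Genes of other lineages moved with the classes. Of the mesenchyme list, 7 of 10 genes reached 10 CPM in the trophectoderm/amnion-like class in both libraries, with a summed level of 581 and 633 CPM there, against 167 and 132 CPM in epiblast-like cells. None of the 10 was at 0 in either class. Primitive streak and mesoderm genes summed to 7.98 and 6.52 CPM in trophectoderm/amnion-like cells, against 382 and 497 CPM in epiblast-like cells. TBXT and MSGN1 were at 0 in library 2 of the trophectoderm/amnion-like class. The part of these cells in the keratin and desmosome differences was not tested.

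Among the epiblast-like sub-clusters, keratin levels were graded and the POU5F1-GATA3 sub-cluster stood near the trophectoderm/amnion-like class. It held 300 and 602 CPM of POU5F1 and 136 and 177 CPM of GATA3. KRT8 had 868 and 874 CPM there, KRT18 had 1326 and 1519 CPM, and KRT19 had 601 and 735 CPM. DSP, at 638 and 596 CPM, and DSG2, at 141 and 156 CPM, were both above their levels in the trophectoderm/amnion-like class in each library. PKP2 was lower than in that class, at 195 and 100 CPM, and KRT7 at 52.2 and 87.6 CPM. Median depth in this sub-cluster was 64732 and 70768 UMIs, the highest of the 4 sub-clusters in both libraries. VIM, which encodes the mesenchymal filament protein vimentin, stood at 85.2 and 38.8 CPM there, against 1448 and 1365 CPM in the trophectoderm/amnion-like class.

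The sub-cluster led by RSPO3 and MESP1, genes of the primitive streak and early mesoderm, held 14 and 17 cells and TBXT at 166 and 243 CPM. It kept intermediate levels of the simple epithelial pair, with KRT8 at 396 and 381 CPM and KRT18 at 462 and 480.0 CPM. KRT19 stood at 287 and 297 CPM. KRT7 had 0 UMIs in both libraries, which allows up to 3.65 CPM over the 2 libraries together, and the trophectoderm/amnion-like class had it at least 29.4-fold higher. The trophectoderm/amnion-like class had 1509 and 1661 KRT7 UMIs beside 19287 and 23033 KRT18 UMIs, against 0 and 0 KRT7 UMIs beside 175 and 213 KRT18 UMIs in MESP1-led cells, so that the 2 genes did not keep 1 ratio across these groups. In the same cells CDH2, which encodes N-cadherin, stood at 409 and 586 CPM and CDH1, which encodes E-cadherin, at 94.9 and 76.6 CPM. DSP was nevertheless at 345 and 293 CPM, the second highest of the 4 sub-clusters in both libraries.

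The sub-clusters led by NODAL and by SOX2 had the lowest levels of KRT8 and KRT18. In NODAL-led cells, 9 and 32 in number, KRT8 had 176 and 212 CPM, KRT18 had 315 and 341 CPM and KRT19 had 52.4 and 73.6 CPM. In SOX2-led cells, 10 and 14 in number, KRT8 had 181 and 205 CPM and KRT18 had 382 and 337 CPM, while KRT19 differed between libraries at 312 and 82.7 CPM. KRT7 rested on 2 and 1 UMIs in NODAL-led cells and on 6 and 1 UMIs in SOX2-led cells. PKP2 lay between 7.49 and 27.6 CPM in the NODAL-led, SOX2-led and MESP1-led cells, far below its 312 and 307 CPM in the trophectoderm/amnion-like class. DSG2 was higher in NODAL-led cells, at 146 and 95.2 CPM, than in SOX2-led cells, at 74.9 and 70.4 CPM. By sub-cluster, KRT10 did not follow the other keratins: it had 113 and 126 CPM in MESP1-led cells and 121 and 79.6 CPM in SOX2-led cells, against 59.1 and 71.0 CPM in the POU5F1-GATA3 sub-cluster.

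Syncytiotrophoblast-like cells had the most KRT7, with 367 and 389 CPM, against 107.5 and 107.2 CPM in the trophectoderm/amnion-like class. KRT19 was also higher there, at 1347 and 1648 CPM, and PERP at 470.4 and 503 CPM. KRT18 had 2040 CPM in library 1 but 1494 CPM in library 2, and the library 2 value was close to the trophectoderm/amnion-like one. KRT19 per KRT18 differed accordingly between the libraries, at 0.66 and 1.10. DSP, at 491 and 556 CPM, and DSG2, at 123 and 116 CPM, were not above the trophectoderm/amnion-like levels in both libraries. No test was run for this cluster.

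Within the trophectoderm/amnion-like class, the cycling cluster, led by TOP2A and MKI67 among others, had less KRT19 and KRT7 than the largest cluster. KRT19 had 741 and 731 CPM in the 165 and 274 cycling cells, against 1067 and 1122 CPM in the 448 and 544 cells of the largest cluster. KRT7 had 82.2 and 77.2 CPM in cycling cells, against 123 and 128 CPM. PKP2 was close between them, at 296 and 295 CPM in cycling cells, against 311 and 314 CPM. KRT8 had 963 and 1012 CPM in cycling cells, against 1093 and 1154 CPM. The unnamed cluster of 76 and 379 cells had PTTG1, CDC20 and CCNB2 among its leading genes. MKI67 stood there at 126 and 118 CPM, against 19.0 and 19.2 CPM in the largest cluster. Its KRT19, at 1069 and 1194 CPM, was not below that of the largest cluster, and its KRT7 had 96.2 and 135 CPM. Lower KRT19 was thus not shared by all clusters with MKI67. These are values of clusters and were not tested.

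Cell by cell, the genes differed in how many cells carried them. Cells were thinned to 5000 UMIs each, which left out 44 and 71 trophectoderm/amnion-like and 2 and 0 epiblast-like cells. A KRT18 UMI was found in 92.1% and 93.5% of trophectoderm/amnion-like cells, against 73.7% and 72.5% of epiblast-like cells. A PKP2 UMI was found in 75.5% and 76.2% of trophectoderm/amnion-like cells, against 29.8% and 18.8% of epiblast-like cells. A KRT7 UMI was found in 28.0% (95% Clopper-Pearson interval 24.5% to 31.7%) and 30.5% (27.3% to 33.8%) of trophectoderm/amnion-like cells, against 14.0% (6.29% to 25.8%) and 3.75% (0.780% to 10.6%) of epiblast-like cells. In syncytiotrophoblast-like cells KRT7 was found in 69.2% (48.2% to 85.7%) and 69.8% (53.9% to 82.8%).

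All epiblast-like cells with a KRT7 UMI after thinning, 8 of 57 in library 1 and 3 of 80 in library 2, lay in the POU5F1-GATA3 sub-cluster. The other sub-clusters had 0 of 9 and 0 of 32 NODAL-led cells, 0 of 10 and 0 of 14 SOX2-led cells, and 0 of 13 and 0 of 17 MESP1-led cells, and a count of 0 in the largest of these sets, taken as fewer than 3 counts, allows up to 9.38% of its cells to carry a KRT7 UMI at this depth, which is not a limit on cells that express the gene. POU5F1, the pluripotency factor, had a UMI in 14.2% and 16.6% of trophectoderm/amnion-like cells at the same depth. Whether these UMIs came from the cells themselves was not tested, so a low share alone is not read here as expression. Before thinning, KRT7 UMIs were found in 65.9% of trophectoderm/amnion-like cells and 29.3% of epiblast-like cells, as the mean of both libraries. The intervals cover counting error only.

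Summed UMIs of KRT8, KRT18 and KRT19 per cell showed the same grading and a wide spread. Per 5000 UMIs, the median was 14 and 15 in trophectoderm/amnion-like cells, with 12 cells at 0 in each library and highest values of 52 and 64. In syncytiotrophoblast-like cells the median was 19 and 13. Medians in MESP1-led cells were 4 and 7, and in both NODAL-led and SOX2-led cells 3 and 2. The POU5F1-GATA3 sub-cluster ran from 0 to 48 UMIs in library 1 and from 0 to 32 in library 2, with medians of 14 and 8. Its variance was 9.73 and 9.17 times its mean, against 5.84 and 5.66 times in the trophectoderm/amnion-like class and 1.42 to 3.16 times in the other sub-clusters. Across epiblast-like cells, the keratin sum went with GATA3 (Pearson r of 0.66 in 57 cells and 0.57 in 80 cells), EPCAM (0.56 and 0.59) and PERP (0.65 in both), and against SOX2 (-0.30 and -0.25). With POU5F1 it was 0.08 and 0.31. These correlations are descriptions over cells that share a library and its depth.

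**Figure D3:**
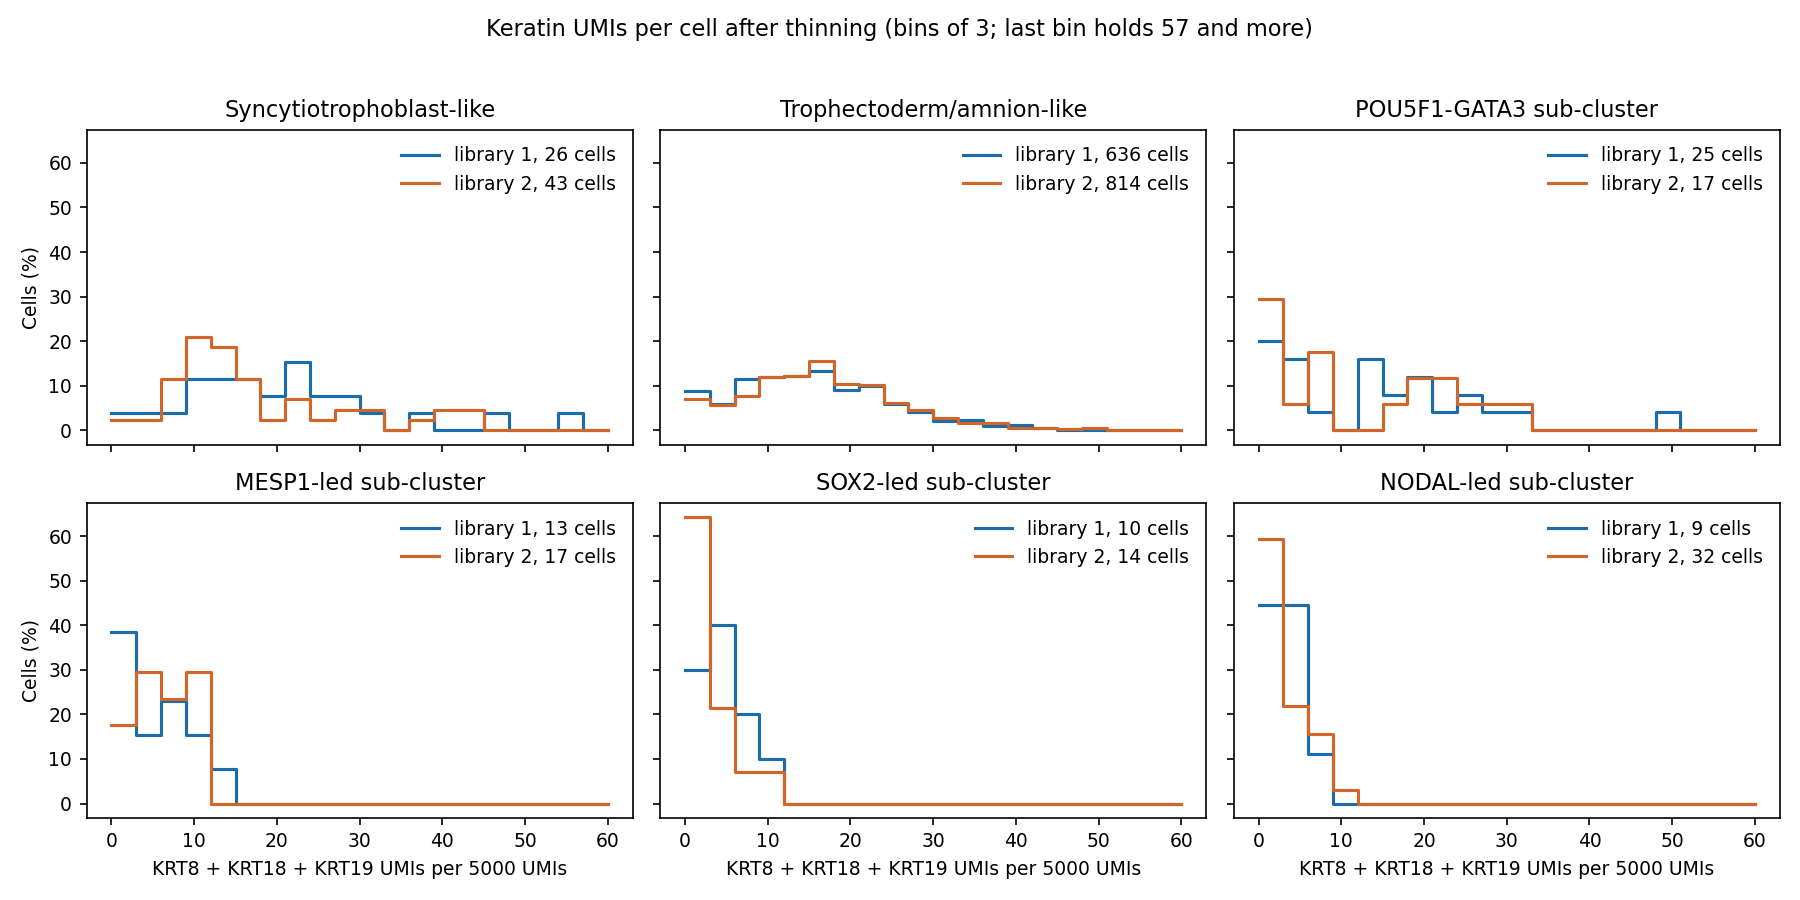
Summed UMIs of KRT8, KRT18 and KRT19 per cell after thinning to 5000 UMIs (horizontal axis, bins of 3, the last bin holding 57 and more) against the percentage of cells (vertical axis) in 6 groups of cells. Lines are the 2 libraries, with cell numbers in each legend. Highest values were 52 and 64 in the trophectoderm/amnion-like class and 48 and 32 in the POU5F1-GATA3 sub-cluster, against 6 to 12 in the other 3 sub-clusters.

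KRT8 and KRT18 were the most closely coupled pair. Over all cells of at least 5000 UMIs, 823 and 1135 in the 2 libraries, Pearson's r of their log levels was 0.89 and 0.85. It was 0.90 and 0.85 over the 636 and 814 trophectoderm/amnion-like cells alone. There, KRT19 had an r of 0.74 and 0.69 with KRT8 and of 0.68 and 0.62 with KRT18, and PERP one of 0.61 and 0.56 with KRT8. KRT7 stood at 0.43 and 0.37 with KRT8 and at 0.46 and 0.45 with KRT19. KRT10, which did not follow these keratins by sub-cluster, went with them cell by cell, at 0.51 and 0.40 with KRT8 and 0.47 and 0.40 with KRT19. The desmosome genes had lower r with the keratins and with each other, with 0.35 and 0.38 between DSP and KRT8, 0.25 in both libraries between DSG2 and KRT8, and 0.21 and 0.23 between DSP and DSG2. Few UMIs per cell lower r for scarcer genes such as DSG2, at 133 CPM, and the part of this was not tested. PKP2 had negative values with every other gene of the set in both libraries, from -0.21 to -0.01, all of them weak.

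**Figure D4:**
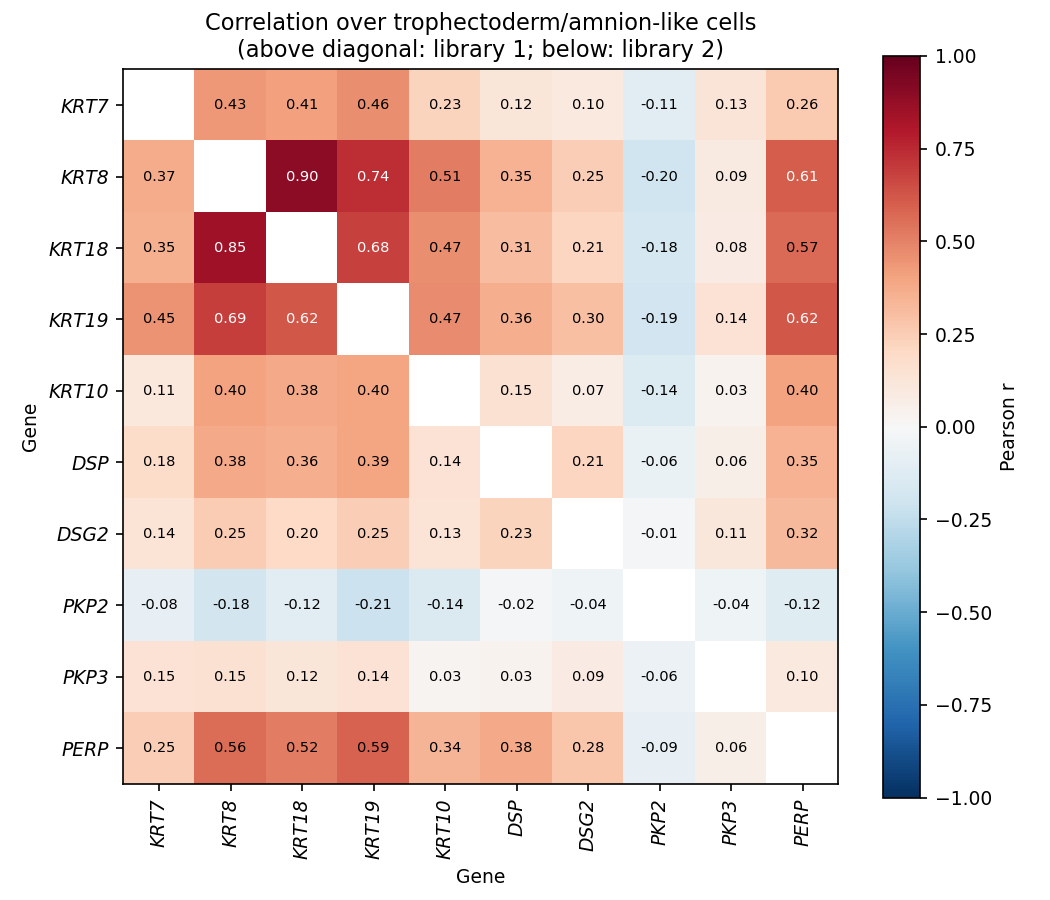
Pearson's r between each pair of genes over trophectoderm/amnion-like cells of at least 5000 UMIs (both axes list the genes; colour and printed value give r). Values above the diagonal are library 1 (636 cells) and those below it library 2 (814 cells). KRT8, KRT18, KRT19 and PERP form the block of high values, and the row of PKP2 is negative throughout.

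Properties of the cell moved with these levels. Over the same trophectoderm/amnion-like cells, r with the share of ribosomal protein UMIs was 0.71 and 0.64 for KRT8, 0.71 and 0.65 for KRT18, 0.72 and 0.71 for KRT19 and 0.62 and 0.61 for PERP, but 0.20 and 0.25 for DSP and -0.27 and -0.22 for PKP2. With the share of mitochondrial UMIs, r was -0.50 and -0.32 for KRT8 and 0.07 and 0.13 for PKP2. With the log10 of a cell's UMIs, KRT8 had 0.44 and 0.36 and PKP2 had -0.07 in both libraries. The part of these properties in the coupling of the keratins was not tested.

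**Figure D5:**
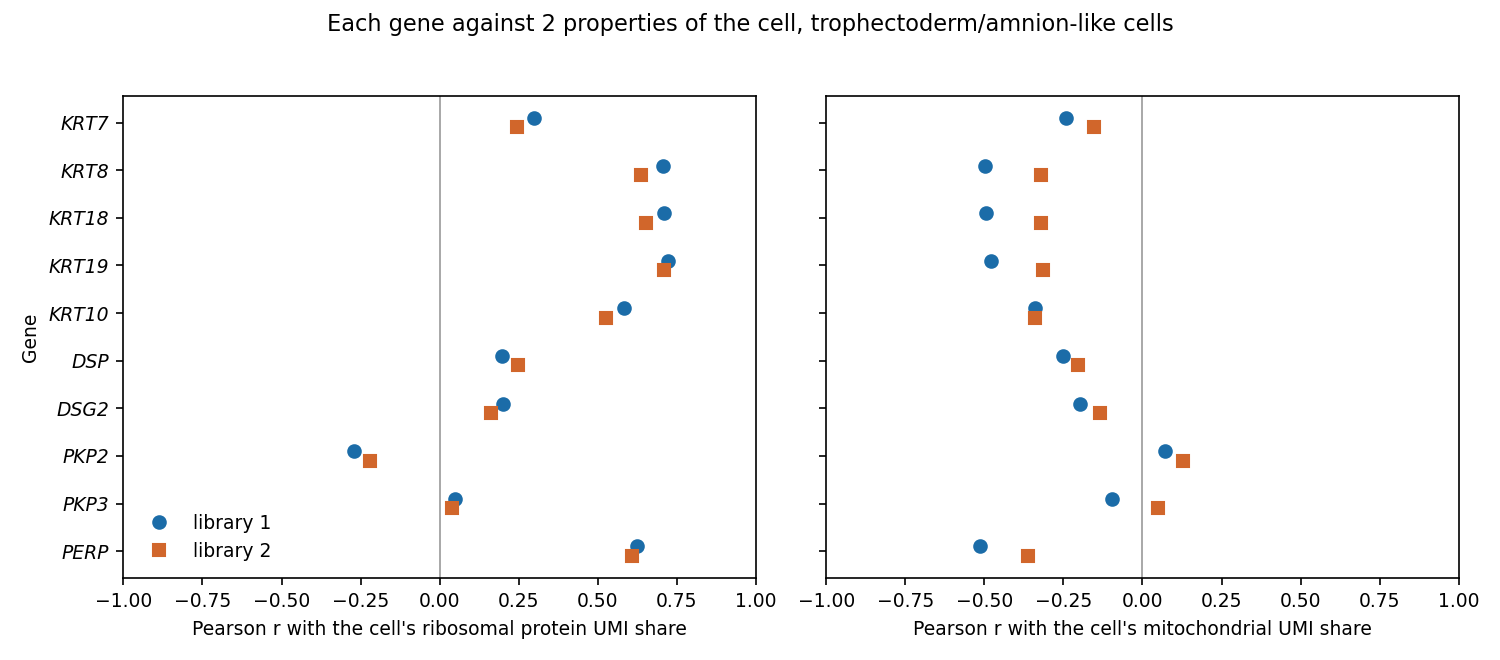
Pearson's r of each gene's log level (vertical axis, genes) with the share of ribosomal protein UMIs (left) and of mitochondrial UMIs (right) of the cell (horizontal axes), over trophectoderm/amnion-like cells of at least 5000 UMIs. Circles are library 1 and squares library 2. KRT8, KRT18, KRT19 and PERP lie between 0.61 and 0.72 on the left, whereas PKP2 lies at -0.27 and -0.22.

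The keratins and PKP2 also parted in 1 of the unnamed clusters and in the barcodes outside the mitochondrial limit. In the unnamed cluster of 92 and 87 cells, with a median of 3375 and 3156 UMIs per cell, median mitochondrial shares were 0.110% and 1.20%. There KRT8 reached 1936 and 1676 CPM, KRT18 reached 2264 and 2095 CPM and KRT19 reached 1655 and 1531 CPM, all above the trophectoderm/amnion-like class, while PKP2 had 101 and 124 CPM. The median share of ribosomal protein UMIs was 28.8% and 24.8% in this cluster, against 14.5% and 14.9% in the trophectoderm/amnion-like class, and its part in these levels was not tested. The unnamed cluster of 76 and 379 cells did not show this: PKP2 had 319.7 and 303 CPM there, near its trophectoderm/amnion-like level, and KRT8 had 1286 and 1366 CPM. In the 71 and 69 barcodes with more than 20% mitochondrial UMIs, KRT8 had 284 and 290 CPM, KRT18 had 328 and 378 CPM and KRT19 had 211 and 189 CPM. PKP2 in those barcodes, at 286 and 254 CPM, was near its 288 and 278 CPM in the retained ones. DSP had 310 and 237 CPM and PERP had 87.5 and 61.9 CPM in those barcodes. Levels there are relative to all UMIs, mitochondrial ones included.

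The genes most like the members over all cells of at least 5000 UMIs, ranked by the lower r of the 2 libraries among 3945 genes at 50 CPM or more, divided in the same way. For KRT8 they were KRT18, KRT19, S100A11 (0.78 and 0.68), TMSB10 (0.74 and 0.68) and ANXA2 (0.70 and 0.67). For KRT18 they were KRT8, TMSB10, S100A11, S100A10 and KRT19, and for KRT19 they were S100A11, KRT8, S100A10, ANXA2 and TMSB10. For DSP they were KRT19, KRT8, PERP, ANXA2 and S100A11, with r of 0.32 to 0.38. For PKP2 they were SLC38A1, an amino acid transporter (0.59 and 0.56), FREM2 (0.56 and 0.47), GRHL2, an epithelial transcription factor (0.52 and 0.47), OSBPL9 (0.53 and 0.47) and TEAD1 (0.47 in both). No gene of the PKP2 group was among those of the keratins or of DSP.

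Other keratins were few. For the counts of calls in this and the following lists, 22.0% of all genes tested were higher and 25.2% were lower. Without the POU5F1-GATA3 sub-cluster these shares were 25.6% and 27.2%. Of 10 further type I keratins, 5 were in both tables and 3 were tested, of which 2 were higher in the trophectoderm/amnion-like class, 0 were lower and 1 did not pass. KRT16, a keratin of stressed epidermis, had 18.6 and 10.5 CPM in trophectoderm/amnion-like cells, against 2.06 and 0 CPM in epiblast-like cells (log2 fold change 3.99, SE 0.73; edgeR adjusted p = 2.76e-04). KRT17, named after its values were seen, had 5.84 and 3.81 CPM in trophectoderm/amnion-like cells and 0 UMIs in epiblast-like cells, so that its level was at least 7.0-fold higher in the trophectoderm/amnion-like class, against a floor of 3 UMIs over both libraries. KRT23 had 22.8 and 24.2 CPM in trophectoderm/amnion-like cells, against 43.8 and 3.66 CPM in epiblast-like cells, which overlapped (edgeR adjusted p = 0.762). In the POU5F1-GATA3 sub-cluster it had 95.4 CPM in library 1 and 9.98 CPM in library 2. Without that sub-cluster the epiblast-like cells held 1 and 0 KRT23 UMIs, and KRT23 passed as higher in the trophectoderm/amnion-like class (edgeR adjusted p = 6.78e-07), which made 3 of the 3 tested type I genes higher. The median log2 fold change of the 3 tested genes was 3.99, or 2.81 with KRT17 at its bound. Of 10 further type II keratins 3 were in both tables, and KRT80, the 1 tested, did not pass (edgeR adjusted p = 0.111). Of 5 measured squamous markers, 1 reached 10 CPM in the trophectoderm/amnion-like class, and they summed to 23.1 and 31.6 CPM there, against 38.1 and 15.4 CPM in epiblast-like cells.

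Of 9 further desmosome genes, 6 were in both tables and 3 were tested, of which 2 were higher in the trophectoderm/amnion-like class, 0 were lower and 1 did not pass, with a median log2 fold change of 0.66. DSC2, the cadherin partner of DSG2, had 210 and 192 CPM in trophectoderm/amnion-like cells, against 137 and 128 CPM in epiblast-like cells (log2 fold change 0.66, SE 0.13; edgeR adjusted p = 5.97e-04). JUP, which encodes plakoglobin, had 96.5 and 95.8 CPM in trophectoderm/amnion-like cells, against 57.2 and 49.6 CPM in epiblast-like cells (log2 fold change 0.91, SE 0.13; edgeR adjusted p = 3.44e-05). The classes did not overlap for either gene. Without the POU5F1-GATA3 sub-cluster the epiblast-like cells had DSC2 at 69.8 and 71.2 CPM, and the log2 fold change was 1.58 (edgeR adjusted p = 5.34e-08). PKP4, a plakophilin relative of adherens junctions, stood at 0.29 and did not pass (edgeR adjusted p = 0.0936), but passed without that sub-cluster at 0.31 (edgeR adjusted p = 0.0458). Of 9 cytolinker and hemidesmosome genes, 7 were tested, 4 were higher, 1 was lower and 2 did not pass. They included the hemidesmosome integrin subunit ITGB4, at a log2 fold change of 2.43, and ITGA6, its partner, at -1.29. The plakin genes PPL, at 0.85, and DST, at 0.75, were also higher. Without the POU5F1-GATA3 sub-cluster ITGB4 stood at 3.06 and PPL at 1.74, with the same counts of calls.

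Genes of the neighbouring adherens junction divided by cadherin. Of 9 tested, 5 were higher, 1 was lower and 3 did not pass, with a median log2 fold change of 0.48. CDH2, N-cadherin, had 25.1 and 26.1 CPM in trophectoderm/amnion-like cells, against 178 and 231 CPM in epiblast-like cells, a log2 fold change of -2.94 (edgeR adjusted p = 5.71e-10). CDH3, P-cadherin, stood at 1.84, and the catenins CTNNB1 and CTNND1 at 0.89 and 0.74, and all 3 passed the test. CDH1, E-cadherin, and EPCAM, named after their values were seen, stood at 0.03 and 0.10 and did not pass (edgeR adjusted p = 0.897 and 0.625). Both genes were high in the POU5F1-GATA3 sub-cluster, which had CDH1 at 412 and 438 CPM and EPCAM at 314 and 426 CPM. CDH1 had 259 and 244 CPM in trophectoderm/amnion-like cells, against 166 and 121 CPM in epiblast-like cells without that sub-cluster, and passed as higher at 0.91 (edgeR adjusted p = 4.68e-05). EPCAM had 254 and 265 CPM in trophectoderm/amnion-like cells, against 177 and 175 CPM in those epiblast-like cells, and passed as higher at 0.65 (edgeR adjusted p = 1.26e-03). Without the sub-cluster 8 of the 9 genes were higher and 1, CDH2, was lower, and CTNND1 stood at 1.36. Of 5 tested genes of other intermediate filaments, 2 were higher and 3 were lower. VIM stood at 3.34, with 1448 and 1365 CPM in trophectoderm/amnion-like cells, against 161 and 129 CPM in epiblast-like cells. Among the lamins LMNA stood at 1.27 and LMNB1 at -1.67, and NES, which encodes the progenitor filament protein nestin, stood at -1.06.

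Of 11 epithelial transcription factors, 4 were higher in the trophectoderm/amnion-like class, 1 was lower and 6 did not pass, with a median log2 fold change of 0.45. Of all genes tested 47.3% were called, 22.0% as higher and 25.2% as lower. The share of the 11 factors that was called was near 47.3%. Their calls were more often higher than lower, whereas calls over all genes were more often lower. This difference in direction was not tested. GRHL2, of the grainyhead family, had 581 and 592 CPM in trophectoderm/amnion-like cells, against 307 and 183 CPM in epiblast-like cells (log2 fold change 1.33; edgeR adjusted p = 2.68e-05). GRHL1 stood at 1.55 and was also higher. GRHL3, the third grainyhead gene, was lower, with 1.99 and 2.07 CPM in trophectoderm/amnion-like cells, against 18.0 and 21.5 CPM in epiblast-like cells (log2 fold change -3.22; edgeR adjusted p = 7.64e-07). Without the POU5F1-GATA3 sub-cluster 7 were higher, 1 was lower and 3 did not pass, against 25.6% higher and 27.2% lower of all genes tested. GRHL2 then stood at 2.39, GRHL1 was again higher (edgeR adjusted p = 1.06e-08) and GRHL3 stood at -1.42 (edgeR adjusted p = 0.0473). TP63, KLF5 and TFAP2C, named after their values were seen, passed as higher (edgeR adjusted p = 1.52e-04, 3.51e-03 and 5.17e-03). Of these, KLF5 and TFAP2C changed direction, from -0.22 and -0.64 with the sub-cluster, where neither passed, to 1.88 and 1.52.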

How the data were processed

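Single-cell RNA of 2 libraries of day 4 blastoids was counted with droplet 3′ chemistry, per the labels' protocols. The authors deposited raw UMI counts per gene and barcode, 1 table for each library. Cell Ranger 9.0.0 and the build GRCh38 are named in the submitters' processing notes. The 10 genes, the marker lists and the related lists were chosen with earlier results of these data known.

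Barcodes were kept at 1000 genes or more and 20% mitochondrial UMIs or less, and levels over retained barcodes use all of these. For classes, scrublet (scanpy 1.11.5) marked 4 and 3 doublets, which were removed. UMIs were divided at random into 2 parts. The first, without mitochondrial and ribosomal genes and the 76 genes of the members and related lists, gave Leiden clusters at resolution 0.5 (2000 variable genes, 30 components, 15 neighbours), named from 10 marker lists. The score used for naming was written after the data were seen. Clusters under 1/3 of their library's median depth stayed unnamed unless a marker led them, as did those of fewer than 20 cells. The second part was summed by library and group and tested with edgeR 4.0.16 in R 4.3.3 (TMM, filterByExpr, quasi-likelihood, library as a block because both classes come from the same library), with 10 sums of 5 groups and 4 residual degrees of freedom. DESeq2 1.42.0 was an alternative. On simulated data of 25513 genes, 12558 tested, 2-fold changes were called in 74 of 100 genes and 4-fold changes in 100 of 100, and 10 unchanged genes were called. The changed genes were all at 10 CPM or more and far fewer than the genes called in the data. The simulated spread was fixed in advance, above the one estimated from the data. These rates are therefore not those of the comparison itself. Named genes are all 10 members and, of each related list, up to 4 with the largest absolute fold change at 10 CPM or more; 1 gene under this rule is not reported here. Alternatives covered normalisation, test, filters, block, split, doublets, resolution and make-up of the classes.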

Additional observations from a re-analysis of the deposited data

Results flagged for a closer look

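Barcodes with fewer than 1000 detected genes, which no comparison used, carried the 10 genes at levels like those of retained barcodes. Their summed level was 5151 CPM in the 980 such barcodes of library 1 and 4503 CPM in the 1013 of library 2, against 4864 and 5009 CPM in retained barcodes. Median depth was 384 and 485 UMIs per barcode there. KRT18 stood at 1602 and 1289 CPM in these barcodes and KRT8 at 1161 and 987 CPM. PKP2 was lower than in retained barcodes in both libraries, at 147 and 226 CPM, against 288 and 278 CPM.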

How the results depend on the processing

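Under the 11 alternative fits the number of genes called ranged from 4683 (DESeq2 Wald test) to 7207 (all UMIs), and no direction of the 10 genes changed. The count of members higher was 7 in another random split, 9 without the POU5F1-GATA3 sub-cluster and 8 otherwise. The count of members lower was 1 with all UMIs and 1 without that sub-cluster, KRT10 in both. Without the library block (no replicate block) 6264 genes and 8 members were called, and the pairing changed no call of a member. Leaving out the trophectoderm/amnion-like cluster led by PLCG2, an alternative chosen after seeing the data, kept 8 members higher and 0 lower. Related genes without the POU5F1-GATA3 sub-cluster were also fitted after seeing the data. No related gene called in the main fit changed direction. TFAP2C and KLF5, not called there, turned from -0.64 and -0.22 to 1.52 and 1.88 and passed as higher. KLF4 and ELF3 changed direction too but passed in neither fit. Within single libraries the log2 fold change of PKP2 ranged from 1.76 to 2.64 and that of PERP from 0.78 to 1.19. The causes were not tested. Without a filter on low counts all genes had a median log2 fold change of 0.13, against -0.03 with it. With fewer or more UMIs per cell or another thinning, 24 shares of trophectoderm/amnion-like cells and 22 of epiblast-like cells moved by more than the spread between libraries, and 14 mean levels over retained barcodes did so under other cell filters or averages. Epiblast-like levels rest on 59 and 80 cells, and the depth of PKP3 there on 7 and 10 UMIs.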
